A study of Danio rerio with 52 samples.

Results

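The genes described here encode integrins, laminins, fibronectins, nidogens, thrombospondins and the secreted matrix protein transforming growth factor beta-induced (tgfbi) of the zebrafish. They were chosen by gene symbol alone, and 52 of the 19331 genes tested in the series belong to them. A further 2 matching labels each join several genes (the itgae and the itgb1b.1 and itgb1b.2 labels) and were not tested. One of the 52, itgb1bp1, meets the symbol rule but encodes a protein that binds the tail of beta1 integrin and is no integrin itself. Where a gene had several probe sets (3 of the 52), the one with the highest mean was used.

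Integrins are cell surface receptors made of 1 alpha and 1 beta chain, and they tie the cytoskeleton to the matrix outside the cell. Laminins, trimers of an alpha, a beta and a gamma chain, form the basement membrane under epithelia together with nidogen and type IV collagen, while fibronectin is the main fibrous ligand of the integrins that read the RGD motif. In epithelia the alpha6 and beta4 chains sit in hemidesmosomes, the anchoring points on laminin, and fibronectin and several integrins are known to be made by skin cells that migrate over a wound.

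Each array was hybridized with amplified RNA from about 50 larval skins, taken at 4 days of age, dissociated and sorted by flow cytometry. The skin carries the neuromasts of the lateral line, in which support cells surround the mechanosensory hair cells and mantle cells, candidate progenitors of new hair cells, form the rim. The untreated samples were 6 of non-fluorescent cells, 5 of mCherry+ mantle cells, 4 of mCherry+/GFP+ mantle cells (also called double-positive) and 2 of GFP+ hair cells. The alpl:mCherry transgene marks mantle cells and is carried by both lines used, with pou4f3:GFP for hair cells in one and the ET20 GFP line, which lights most mantle cells, in the other. The double-positive cells came from the ET20 line and the hair cells from the pou4f3:GFP line, and both were pooled from several sorts. The labels do not say which line gave the non-fluorescent and the mCherry+ cells. Copper sulfate, which kills hair cells, was given to other larvae at 5 µM for 1 h. Non-fluorescent cells were then taken after 1 h (n = 7), 3 h, 5 h and 11 h (n = 4 each), and mCherry+ mantle cells at the same 4 times (n = 4 each).

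Values are log2 intensities from which each array's median deviation from the gene means was subtracted, here called log2 levels. They can be compared between arrays for 1 gene but not between genes, since each probe set responds differently. Differences are given as log2 difference ± SE from limma. A gene was called at a Benjamini-Hochberg adjusted p below 0.05 over all 19331 genes. The words "in all 4 fits" mean called in the same direction also on the deposited values, after quantile normalization and with block terms. In the copper fit these terms stand for a constraint at 3 h and 5 h, described below. In the untreated fit 1 term was shared by non-fluorescent replicates 5 and 6 and mCherry+ replicates 1 and 2. Another was shared by non-fluorescent replicate 1 and mCherry+ replicates 3 and 4. The untreated arrays show no exact constraint of the kind found after copper. Whether replicates are separate clutches or separate sorts is not given in the labels, and the p-values therefore describe the spread among these samples, which may be technical. Some untreated arrays were very alike. The SD over genes of the difference between 2 arrays was as low as 0.245 in non-fluorescent, 0.307 in mCherry+ and 0.308 in hair cells. In every other group it was 0.443 or more. Each array was counted as 1 sample, so the SE are too small if such pairs share a source, which was not tested. In sorted bulk samples, fewer cells of a type and less RNA per cell cannot be told apart.

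Marker lists bear on what each sort held. Neuromast support and mantle cell markers (11 genes measured) had a mean log2 level of 5.40 to 5.73 in untreated non-fluorescent arrays, 7.20 to 7.76 in mCherry+ arrays and 9.27 to 9.83 in double-positive arrays. Fibroblast and connective tissue markers (16 genes) stood at 8.73 to 9.26 in non-fluorescent, 9.29 to 9.61 in mCherry+, 6.87 to 8.00 in double-positive and 4.65 to 4.71 in hair cell arrays. The mCherry+ mantle arrays were thus above the non-fluorescent arrays in the mean of the connective tissue list as well as of the neuromast list. Connective tissue is not named in the population's label. By gene, 7 of the 16 connective tissue markers were called higher and 3 lower, among them cxcl12a (-2.91 ± 0.20). Of the 11 neuromast markers 8 were higher and 2 lower, where all genes gave 14.4% higher and 17.6% lower. Hair cell markers (11 genes) were at 8.62 to 8.64 in the hair cell arrays and at 5.12 or below in all others, and the hair cell arrays also held the highest level of pigment cell markers (10 genes, 6.24 to 6.25 against at most 4.82). Basal keratinocyte markers (11 of the 12 listed) ran from 8.79 to 9.65 in non-fluorescent, 7.21 to 8.61 in mCherry+ and 8.12 to 8.84 in double-positive arrays, and were at 7.61 in both hair cell arrays.

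**Figure D1:**
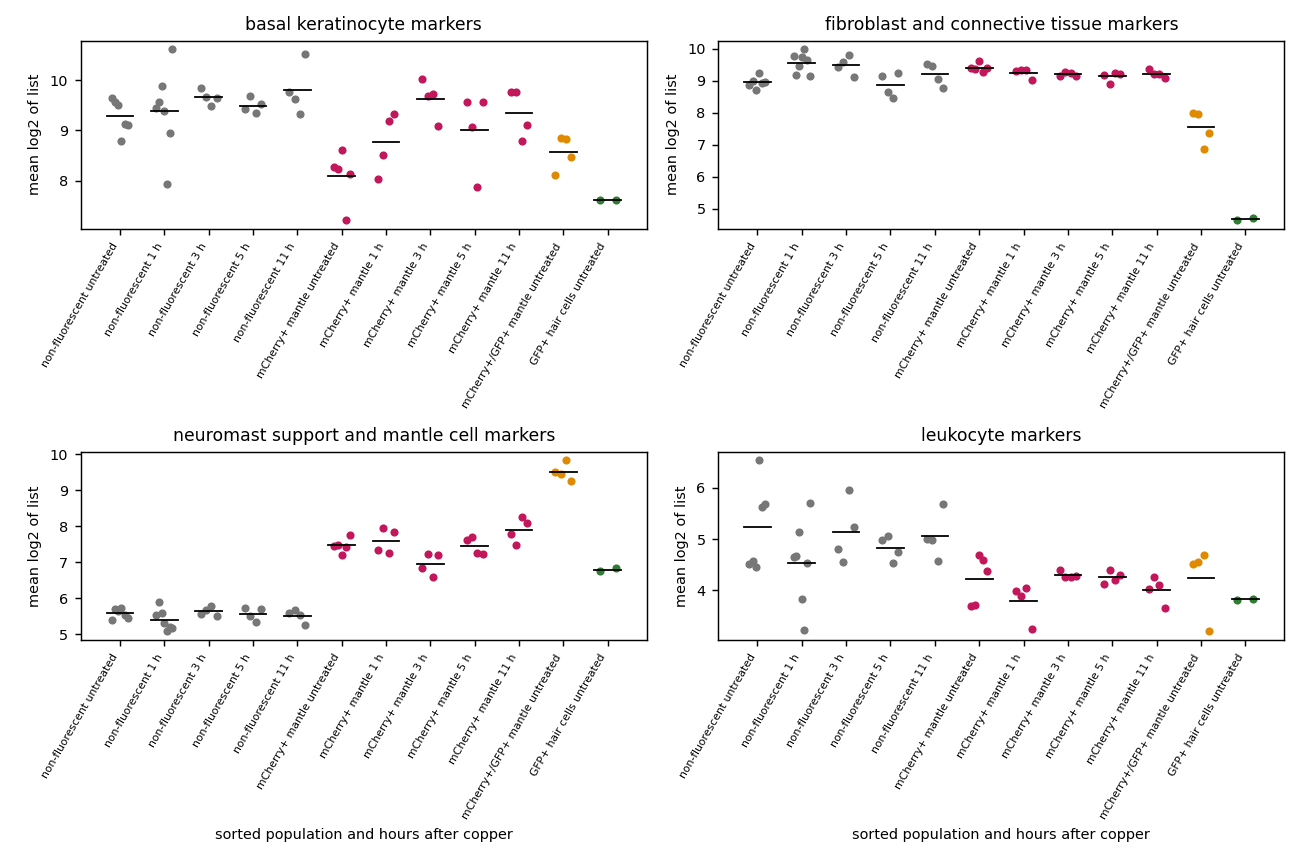
Mean log2 level of 4 marker lists (vertical axis) in each array (points) of the 12 groups (horizontal axis), with a line at the group mean. The connective tissue list is lowest in hair cells (4.65 to 4.71), and the basal keratinocyte list lies higher in mCherry+ mantle cells 3 h after copper (9.09 to 10.03) than in untreated ones (7.21 to 8.61).

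The first comparison asks how the adhesion genes of mCherry+ mantle cells differ from those of the other skin cells. Of the 52 genes, 28 were called, against 32% of all genes, and 27 of them held in all 4 fits (25.9% of all genes). The split was 22 higher and 6 lower in mantle cells, while 14.4% of all genes were called higher and 17.6% lower. The median difference of the members was 0.12, beside -0.0017 for all genes. Beta chains were called higher in 7 of 10 and lower in none.

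Among RGD-binding integrins, itgb3b, a partner chain of alphaV, had log2 levels of 9.62, 9.30, 9.32, 9.71 and 9.86 in the mCherry+ arrays. In the 6 non-fluorescent arrays it ranged from 4.77 to 5.85, with a median of 5.75. The groups lay far apart, and the difference was 4.01 ± 0.32 (adjusted p = 2.37e-08). The alphaV chain itself, itgav, stood at 9.98, 9.82, 10.31, 10.48 and 10.74 in mCherry+ cells and at 7.82 to 8.77 (median 8.11) in non-fluorescent cells. It was higher by 2.02 ± 0.24 without overlap, as were its partner chains itgb6 (1.97 ± 0.17), itgb8 (1.26 ± 0.16) and itgb5 (0.99 ± 0.16). The partner chain itgb3a was not called (-0.29 ± 0.38, adjusted p = 0.602). The alpha8 chain, a receptor of nephronectin, followed the same pattern: itga8 was at 9.30 to 9.80 in mCherry+ arrays and 6.37 to 7.67 in non-fluorescent arrays, a difference of 2.88 ± 0.22. The chains of the main fibronectin receptor differed in direction. The beta1 genes itgb1b.2 (2.51 ± 0.32), itgb1a (1.74 ± 0.29) and itgb1b (1.17 ± 0.20), whose products pair with many alpha chains, were higher in mCherry+ cells. The alpha chain itga5 was at 4.35, 4.24, 4.40, 4.54 and 4.20 in mCherry+ cells and 5.23 to 6.00 in non-fluorescent cells (-1.24 ± 0.19), and fn1a, 1 of the 2 zebrafish fibronectin genes, was also lower (-0.91 ± 0.21, adjusted p = 0.0022). All fn1a levels of mCherry+ cells (6.98, 6.87, 7.14, 7.05 and 7.43) lay below the non-fluorescent range of 7.54 to 8.94. The other fibronectin gene, fn1b, was not called (-0.44 ± 0.42), with 6.20 to 8.06 inside the spread of 6.62 to 8.66.

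The largest decreases were in a collagen receptor and a tenascin receptor. The alpha9 chain itga9 had log2 levels of 4.86, 4.62, 4.77, 5.26 and 5.08 in mCherry+ cells against 7.25 to 7.80 (median 7.59) in non-fluorescent cells, a difference of -2.65 ± 0.21. The collagen-binding itga1 stood at 3.51, 3.41, 4.22, 3.57 and 3.39 against 5.91 to 6.34, a difference of -2.49 ± 0.17 (adjusted p = 4.56e-09). In neither gene did the groups overlap. Endothelial markers (9 genes, 4.83 to 5.11 in non-fluorescent, 3.94 to 4.24 in mCherry+ arrays) and muscle markers (13 genes, 5.40 to 6.99 and 4.27 to 4.95) were lower in the same arrays. Other lists had called decreases and no increases: erythrocyte (7 of 7), Schwann cell and glia (5 of 6), ionocyte (5 of 6), leukocyte (8 of 14) and basal keratinocyte markers (6 of 11). Of all genes 17.6% were called lower. The part of these lists in the decrease was not tested. The other decreases were thbs2b (-1.16 ± 0.25) and thbs4a (-1.09 ± 0.25), secreted thrombospondins whose arrays overlapped between the groups.

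Matrix genes that were higher in mCherry+ cells were led by tgfbi, a secreted ligand of integrins and collagens. Its levels were 11.95, 11.93, 11.63, 12.11 and 12.29, against 8.40 to 9.03 (median 8.70) in non-fluorescent cells, and the difference was 3.32 ± 0.26 (adjusted p = 1.99e-08). The thrombospondins thbs3b (2.49 ± 0.28) and thbs3a (1.75 ± 0.19) were higher without overlap. For thbs3a the arrays read 6.49, 6.35, 5.78, 6.51 and 6.53 in mCherry+ cells and 4.19 to 4.92 in non-fluorescent cells. Of the 11 laminin chains, 6 were called higher and none lower: lamc3 (2.17 ± 0.30), lama4 (1.40 ± 0.25), lamb4 (1.09 ± 0.26), lamb1a (0.99 ± 0.16), lamb1b (0.93 ± 0.26) and lamc1 (0.50 ± 0.14). The beta1 chain gene lamb1a was at 8.77, 8.86, 8.83, 8.96 and 8.77 in mCherry+ arrays and 7.51 to 8.00 in non-fluorescent arrays. For lamc1, the common gamma chain, 8.51, 8.42, 8.65, 8.73 and 9.03 overlapped the 7.88 to 8.47 of the non-fluorescent arrays. The laminin-binding alpha chains itga3b (1.75 ± 0.21) and itga6l (1.20 ± 0.18) were higher as well, but the hemidesmosome pair was not called: itga6b differed by 0.21 ± 0.19 and itgb4 by 0.13 ± 0.28. Double-positive cells shared only some of these increases over non-fluorescent cells. There lamb4 and itga3b were higher, tgfbi was not called (0.62), and lamb1a was below (7.11, 7.18, 6.48 and 6.36). The connective tissue list was also higher in mCherry+ arrays (9.29 to 9.61 against 8.73 to 9.26, with 7 of 16 markers called higher and 3 lower). Its part in the increases of this comparison was not tested.

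**Figure D2:**
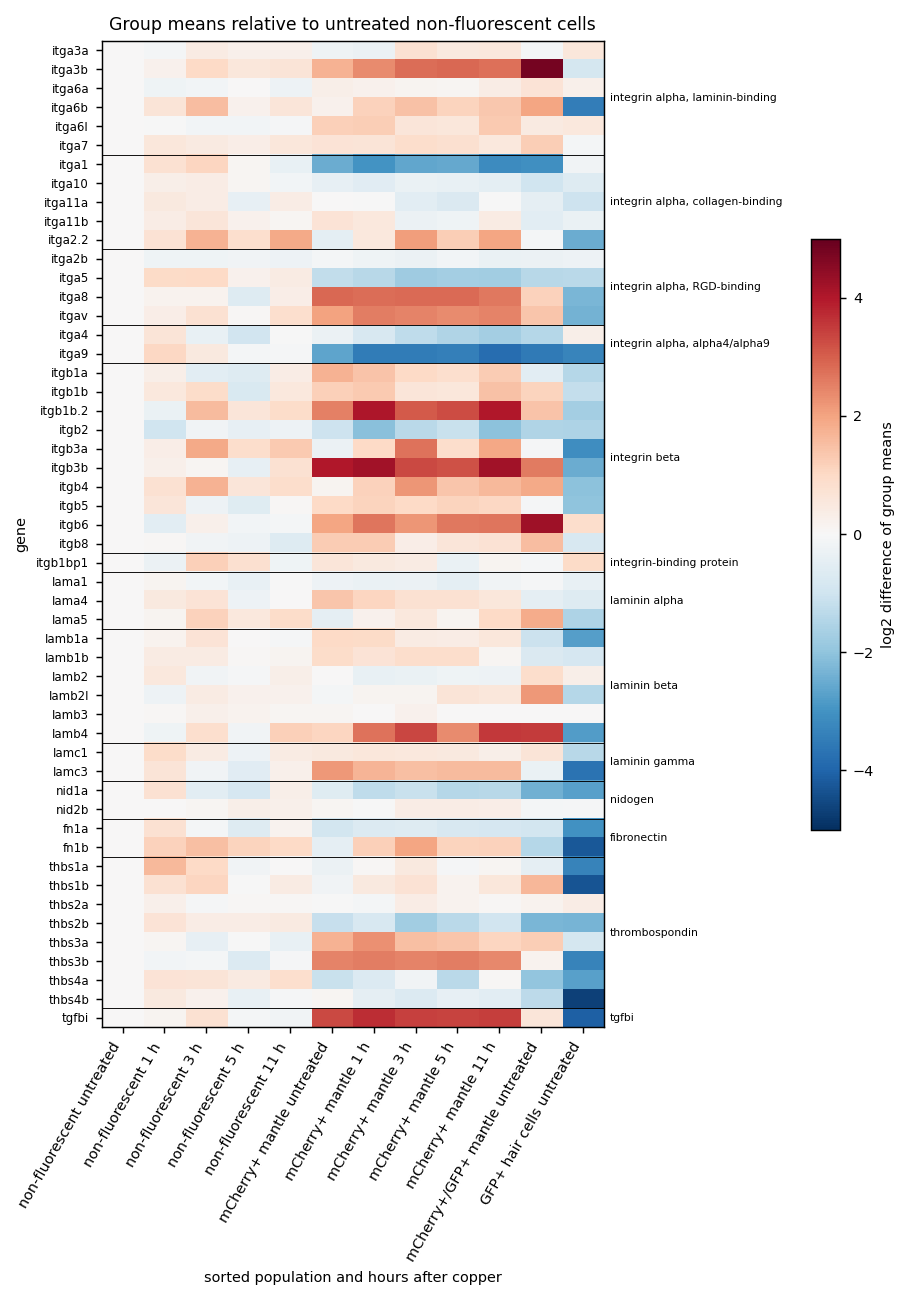
Log2 difference of each group mean from untreated non-fluorescent cells (colour, red higher and blue lower) for the 52 genes (rows, ordered by role) in the 12 groups (columns). The hair cell column is mostly blue, and itga3b and itgb6 are darkest red in mCherry+/GFP+ mantle cells.

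The mCherry+/GFP+ mantle cells held many of these genes at other levels. Compared with mCherry+ mantle cells, 32 of the 52 genes were called, against 25.1% of all genes. Of these, 9 were higher and 23 lower, where all genes gave 14.9% higher and 10.2% lower. The members' median was -0.49 beside 0.01 for all genes, and 22 calls held in all 4 fits (12.9% of all genes), among them all 9 increases. In the fit with the block terms 9 members were called higher and 13 lower. The double-positive cells came from the ET20 line and from pooled sorts, and the line of the mCherry+ cells is not given, so pooling, line where it differs, and population cannot be told apart here.

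The 9 increases were in 3 chains of laminin-binding integrins, 4 laminin chains, itgb6 and a thrombospondin. The alpha3 chain gene itga3b had log2 levels of 10.68, 10.97, 10.72 and 10.31 in the double-positive arrays, and 7.46, 7.52, 7.62, 7.14 and 8.39 in the mCherry+ arrays. Every double-positive array was above every mCherry+ array, by 3.05 ± 0.23 on average (adjusted p = 1.11e-07). The alpha6 chain gene itga6b was at 9.70, 9.68, 9.64 and 9.37 against 7.81, 7.63, 8.28, 7.13 and 8.24, a difference of 1.78 ± 0.21. Its hemidesmosome partner itgb4 was at 9.94, 10.09, 10.29 and 9.91 against 8.14, 8.02, 9.25, 7.06 and 8.92, also a difference of 1.78 (± 0.31). In both genes the double-positive arrays lay close together, the mCherry+ arrays were more spread, and the groups did not overlap. The laminin alpha5 chain of epithelial basement membranes, lama5, read 8.09, 8.73, 8.48 and 8.89 against 6.24, 6.21, 6.56, 5.26 and 6.92, a difference of 2.31 ± 0.30. The beta chains lamb4 (2.42 ± 0.29), lamb2l (2.27 ± 0.34) and lamb2 (0.88 ± 0.23) were higher too. The alphaV partner itgb6, an epithelial chain, stood at 8.88, 9.21, 9.45 and 9.34 against 7.01, 6.80, 6.64, 6.71 and 7.53 (2.28 ± 0.19). The secreted thrombospondin thbs1b was at 10.48, 9.64, 10.10 and 9.63 against 8.27, 8.23, 8.93, 7.11 and 7.98 (1.86 ± 0.27). All but lamb2 separated the arrays fully.

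**Figure D3:**
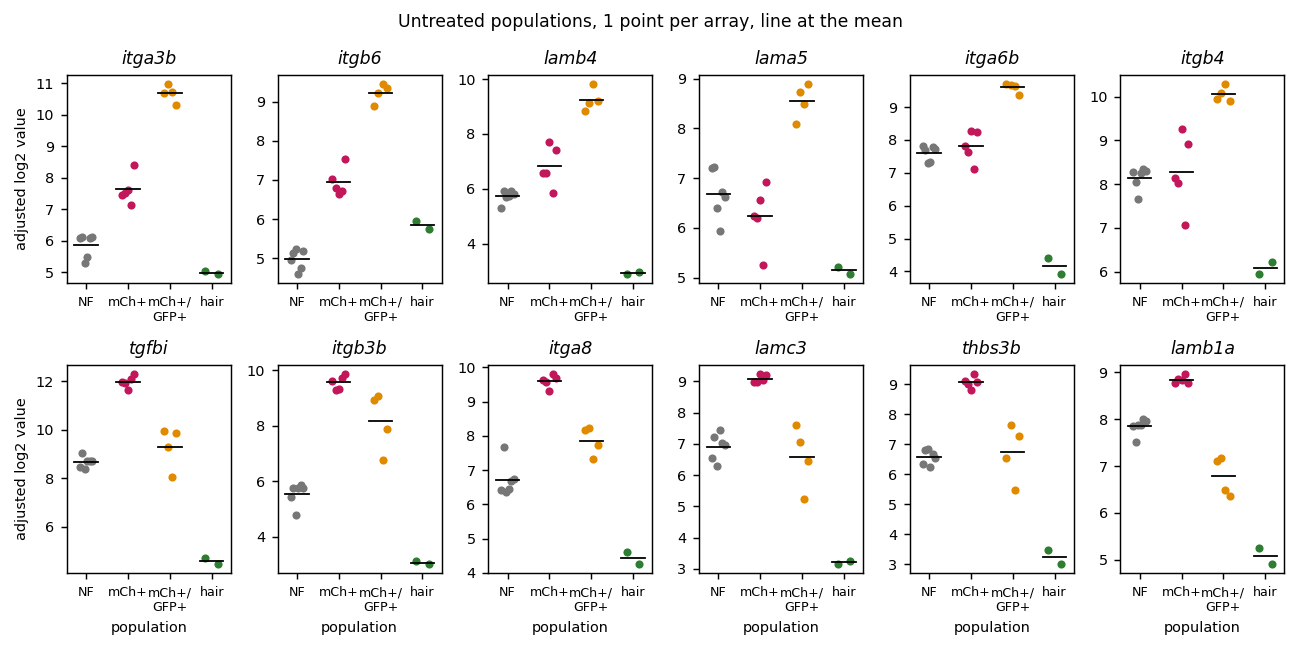
Log2 level (vertical axis) of 12 genes in each untreated array (points, line at the mean) of non-fluorescent (NF), mCherry+ mantle, mCherry+/GFP+ mantle and hair cells (horizontal axis). The 6 genes of the upper panels are highest in mCherry+/GFP+ cells, such as itga3b at 10.31 to 10.97, and the 6 of the lower panels in mCherry+ cells, such as tgfbi at 11.63 to 12.29.

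The decreases were led by tgfbi and chains of other laminins. Levels of tgfbi were 9.96, 9.27, 8.05 and 9.88 in double-positive arrays, below the mCherry+ range of 11.63 to 12.29, and differed by -2.69 ± 0.29. The laminin gamma3 chain lamc3 differed by -2.50 ± 0.33 and the thrombospondin thbs3b by -2.33 ± 0.31. The beta1 chain gene itgb1a was at 7.29, 7.71, 5.46 and 7.02 against 9.05, 9.03, 9.34, 9.29 and 8.95 (-2.26 ± 0.32), while its paralog itgb1b, at 8.81, 9.50, 8.63 and 8.46 against 8.77, 8.64, 8.82, 9.04 and 9.23, was not called (-0.05 ± 0.23). Laminin chains lamb1a (-2.06 ± 0.17), lama4 (-1.87 ± 0.28) and lamb1b (-1.67 ± 0.29) were lower, as was nidogen, the linker of laminin and collagen networks. For that gene, nid1a, the levels were 5.33, 5.11, 4.19 and 4.84 against 6.72, 6.51, 5.91, 7.13 and 6.94 (-1.78 ± 0.26). The alpha8 chain itga8 fell by 1.74 ± 0.24. In the same comparison 14 of the 16 connective tissue markers were lower and none higher. Among the double-positive arrays, replicate 3 was the lowest in tgfbi, itgb1a, nid1a and lamc3 and also had the lowest connective tissue level (6.87). The part of the connective tissue list in these differences was not tested.

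**Figure D4:**
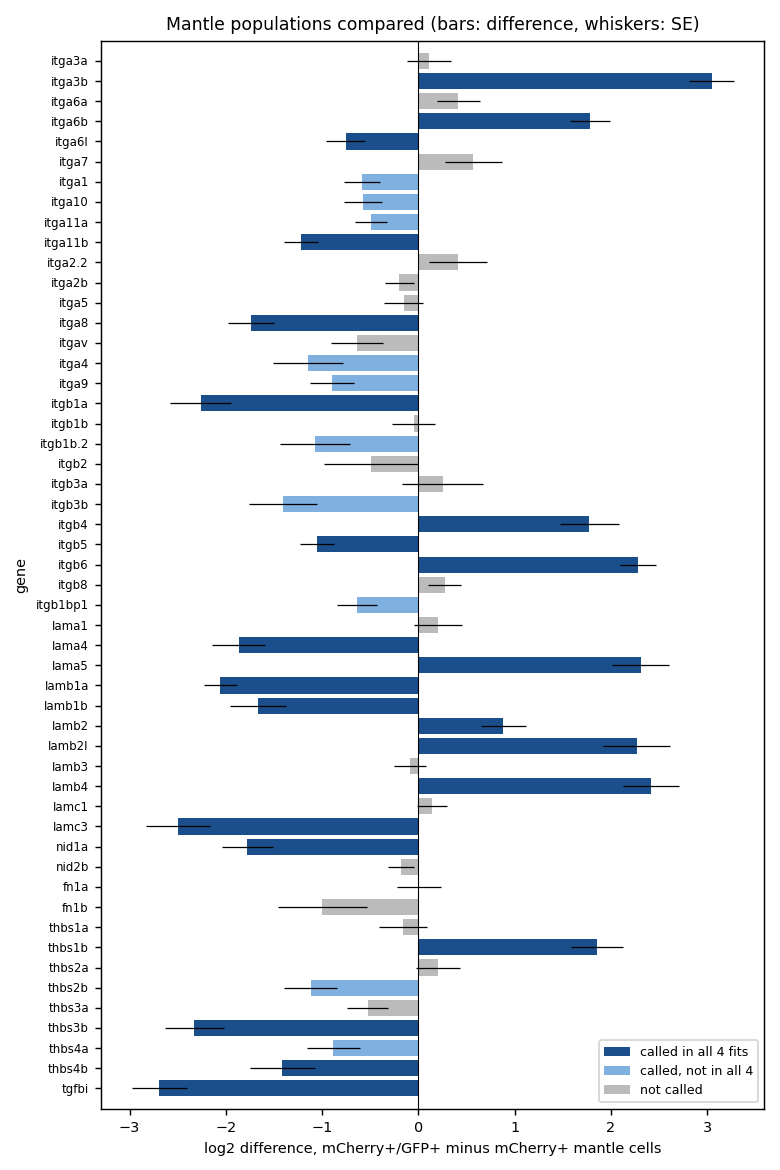
Log2 difference between mCherry+/GFP+ and mCherry+ mantle cells (horizontal axis, bars with SE whiskers) for the 52 genes (vertical axis, ordered by role), coloured by how often the difference was called. Increases are led by itga3b (3.05) and decreases by tgfbi (-2.69).

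Against non-fluorescent cells, 34 members were called in double-positive cells (31% of all genes), 30 of them in all 4 fits (21.5%). Of the 34, 19 were higher (15.9% of all genes) and 15 lower (15.1%). The comparison shares the double-positive arrays with the previous one. The largest differences were itga3b (4.80 ± 0.23), itgb6 (4.25 ± 0.18) and lamb4 (3.51 ± 0.28) upward, and itga9 (-3.54 ± 0.22), itga1 (-3.07 ± 0.18) and nid1a (-2.39 ± 0.25) downward. The order of the untreated means of itga3b was double-positive, mCherry+, non-fluorescent and hair cells, and no neighbouring arrays overlapped. For itgb6 the order was double-positive (8.88 to 9.45), mCherry+ (6.64 to 7.53), hair cells (5.96 and 5.75) and non-fluorescent cells (4.60 to 5.23), again without overlap. Both itga5 (-1.40 ± 0.20) and fn1a (-0.90 ± 0.22) were lower in double-positive than in non-fluorescent cells. The thrombocyte chain itga2b was at 3.55 to 4.01 in non-fluorescent cells and 3.19 to 3.89 in both mantle populations, and no difference was called. The leukocyte chain itgb2 was at 3.74 to 6.40 in non-fluorescent arrays, 2.86 to 4.33 in mCherry+ arrays and 2.03 to 3.67 in double-positive arrays. Its difference between double-positive and non-fluorescent cells (-1.52 ± 0.47, adjusted p = 0.0191) was not called in all 4 fits, and leukocyte markers (14 genes measured) ranged from 4.45 to 6.54, 3.70 to 4.69 and 3.20 to 4.68 in the same groups.

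In hair cells most adhesion genes were low. Compared with non-fluorescent cells 37 members were called, against 36% of all genes, and 35 of them were lower, against 19.8% of all genes. In all 4 fits 34 were called (29.3% of all genes). The median difference was -1.43, beside -0.03 over all genes. The hair cell group has only 2 arrays, which are assumed to vary like the others. Of the 52 genes, 36 had their lowest untreated mean in hair cells (34.1% of all genes), and in 26 both hair cell arrays lay below all other untreated arrays (12.6% of all genes).

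The decreases took in ligands and receptors alike. The thrombospondins thbs4b (-4.67 ± 0.41) and thbs1b (-4.30 ± 0.33) and the fibronectin fn1b (-4.26 ± 0.56) led them. For fn1b the hair cell arrays read 3.63 and 3.58 and the non-fluorescent arrays 6.62 to 8.66. The other fibronectin, fn1a, was at 4.94 and 5.01 against 7.54 to 8.94 (-3.03 ± 0.28). Levels of tgfbi were 4.72 and 4.47, against 8.40 to 9.03 in non-fluorescent cells and 11.63 to 12.29 in mCherry+ cells. The laminin chains lamc3 (-3.70 ± 0.41), lamb4 (-2.79 ± 0.36), lamb1a (-2.76 ± 0.21) and lamc1 (-1.39 ± 0.19) were lower, as were itga6b (-3.44 ± 0.26), itgb4 (-2.07 ± 0.38) and itgav (-2.35 ± 0.33). Connective tissue markers were lower in 16 of 16 in this comparison, and their part in it was not tested. The 2 members called higher (16.2% of all genes) were itgb1bp1 (0.95 ± 0.25), the beta1 tail-binding protein, and itgb6 (0.89 ± 0.23).

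Most members were also lower in hair cells than in either mantle population. Relative to mCherry+ cells 38 members were called (35.2% of all genes), 36 lower (16.7%) and 2 higher (18.5%), and 33 held in all 4 fits (27%). Relative to double-positive cells 32 were called (35.1% of all genes), 29 lower (18.9%) and 3 higher (16.2%), and 31 held in all 4 fits (31.6%). These comparisons share the hair cell arrays with the previous one. The largest differences from mCherry+ cells were in tgfbi (-7.39 ± 0.36), itgb3b (-6.49 ± 0.44) and lamc3 (-5.87 ± 0.42), and from double-positive cells in lamb4 (-6.30 ± 0.38), thbs1b (-5.98 ± 0.35) and itga3b (-5.68 ± 0.30). The collagen-binding itga1 ran the other way. It stood at 5.90 and 5.94 in hair cells, which is inside or next to the non-fluorescent range (5.91 to 6.34) and above all mantle arrays (2.60 to 4.22), by 2.30 ± 0.23 and 2.88 ± 0.24. The alpha4 chain itga4, best known from leukocytes, was at 6.04 and 6.11 in hair cells and at 5.26, 4.37, 4.47 and 3.27 in double-positive cells (1.73 ± 0.47). The pigment cell list was highest in the hair cell arrays, though against non-fluorescent cells 6 of its 10 genes were called higher and 3 lower. The mean of the Schwann cell and glia markers (6 genes) was also higher in hair cells (5.08 to 5.13) than in mCherry+ (4.24 to 4.53) and double-positive arrays (4.42 to 4.76). By gene, 3 were higher and 1 lower than in double-positive cells, and 2 higher and 3 lower than in non-fluorescent cells. Leukocyte markers were at 3.81 to 3.83 in hair cells and 3.20 to 4.68 in double-positive arrays, with 1 of 14 called higher and 1 lower. The part of these lists in the itga1 and itga4 levels was not tested.

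Over the 4 untreated populations, the highest mean lay in mCherry+ cells for 20 of the 52 genes (21% of all genes), in non-fluorescent cells for 15 (23.7%), in double-positive cells for 13 (23.5%) and in hair cells for 4 (31.8%). In 11 genes every mCherry+ array was above every other untreated array (3.78% of all genes), and in 8 every double-positive array was (3.35%).

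The second set of comparisons asks how each population changed after copper. The treated and the untreated arrays were imported separately by the authors, and each set holds only treated or only untreated arrays of these contrasts, so set and treatment cannot be told apart. On the deposited scale the typical gene was 0.14 to 0.18 higher in treated than in untreated non-fluorescent cells, which the subtraction of each array's median deviation takes out. In addition, the values of 3 h and 5 h carry a constraint. Deviations of replicate 4 at 3 h and of replicate 4 at 5 h from their group means correlated at r = -1 in both populations. The term for that constraint is shared, within each population, by the replicates other than replicate 4 at 3 h and 5 h. Every array of both times still enters the fit, and with the term no member was called at 5 h in either population. Since the replicate 4 deviations of 3 h and 5 h mirror each other, the term hardly moves the differences and mainly widens their SE. Over all genes the calls at 5 h fell from 2410 to 138 in mCherry+ and from 2251 to 133 in non-fluorescent cells. A call lost with the term therefore does not show that a difference is absent.

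In mCherry+ mantle cells 1 member was called after 1 h (1.23% of all genes), 14 after 3 h (14.9%), 10 after 5 h (12.5%) and 10 after 11 h (3.6%). In all 4 fits the counts were 0, 4, 0 and 7, beside 0.455%, 1.85%, 0.714% and 2.24% of all genes, and an unadjusted p below 0.05 in limma was found for 15, 26, 25 and 24 members. As a share of the 52 genes the 3 h, 5 h and 11 h calls were 26.9%, 19.2% and 19.2%. At 3 h 10 members were higher (7.38% of all genes) and 4 lower (7.49%), at 5 h 4 were higher (6%) and 6 lower (6.47%), and at 11 h 8 were higher (2.59%) and 2 lower (1.01%). The 4 times share the untreated arrays. The calls of 11 h depended on single arrays, and 4 members were called without mCherry+ untreated replicate 4 or without mCherry+ 11 h replicate 1.

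Fibronectin fn1b was the one member called at all 4 times in mCherry+ mantle cells. Its untreated levels were 7.57, 7.38, 8.06, 6.20 and 7.92. They were 8.11, 9.27, 9.04 and 9.87 after 1 h and 10.82, 9.41, 9.49 and 9.62 after 3 h. The later levels were 8.52, 9.31, 8.84 and 9.19 (5 h) and 10.01, 9.41, 8.07 and 8.57 (11 h). Every treated array was above every untreated array, but only just: the lowest treated level was 8.07 and the highest untreated level 8.06. The differences were 1.65 ± 0.38, 2.41 ± 0.38, 1.54 ± 0.38 and 1.59 ± 0.38, of which those of 3 h and 11 h were called in all 4 fits. The 1 h call was lost without untreated replicate 4 or without 1 h replicate 3 or 4. The 11 h call was lost without untreated replicate 4 or without 11 h replicate 1. The paralog fn1a was called at none of these times, with 6.26 to 7.81 over all treated mCherry+ arrays and 6.87 to 7.43 untreated.

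Receptor chains changed with it. The collagen-binding itga2.2 had untreated levels of 5.09, 4.41, 5.55, 3.93 and 4.83 and reached 8.21, 6.94, 7.57 and 6.70 after 3 h (2.59 ± 0.41). After 11 h it was at 8.01, 7.94, 6.04 and 7.03 (2.49 ± 0.41, adjusted p = 0.000457), above all untreated arrays. The alphaV partner itgb3a went from 5.60, 5.28, 6.74, 3.84 and 5.90 to 9.62, 8.61, 8.56 and 7.11 after 3 h (3.01 ± 0.53), and to 8.80, 8.04, 6.21 and 7.66 after 11 h (2.21 ± 0.53). Its 11 h replicate 3 lay inside the untreated range. The hemidesmosome chain itgb4 was at 10.98, 10.20, 10.13 and 10.07 after 3 h against 8.14, 8.02, 9.25, 7.06 and 8.92 before (2.07 ± 0.41), without overlap. These 3 genes and fn1b were the 4 called in all 4 fits at 3 h.

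Of the 11 laminin chains, 2 were called higher and 1 lower 11 h after copper. The beta chain lamb4 stood at 6.58, 6.58, 7.70, 5.84 and 7.40 in untreated mCherry+ cells and at 9.71, 9.51, 8.51 and 9.40 after 11 h (2.46 ± 0.52, adjusted p = 0.00521). The alpha5 chain lama5 was at 7.47, 8.46, 7.26 and 7.55 after 11 h against 6.24, 6.21, 6.56, 5.26 and 6.92 (1.45 ± 0.30). In both genes all 11 h arrays were above all untreated arrays. The 3 h differences of lamb4 (2.24 ± 0.52) and lama5 (0.99 ± 0.30), those of itga6b at 3 h (1.26 ± 0.33) and 11 h (1.15 ± 0.33) and those of itga3b (1.05 ± 0.29 and 1.00 ± 0.29) were called, but not in all 4 fits. Decreases that held in all 4 fits were those of itga4 (-1.39 ± 0.33) and lama4 (-0.84 ± 0.22) at 11 h. The lama4 call was lost without untreated replicate 4 or 5 or without 11 h replicate 1 or 4. For itga4 the 11 h arrays read 4.51, 3.99, 4.27 and 3.62 and the untreated arrays 5.16, 5.18, 5.70, 5.58 and 5.82. None of the earlier decreases held in all 4 fits. At 3 h they were those of the collagen-binding itga11b (-0.99 ± 0.23), itga4 (-0.97 ± 0.33), itgb8 (-0.93 ± 0.25) and lama4 (-0.63 ± 0.22). At 5 h itga4 (-1.20 ± 0.33), itgb1bp1 (-0.91 ± 0.23), itga11b (-0.91 ± 0.23), itga11a (-0.77 ± 0.23), itga6l (-0.65 ± 0.21) and lama4 (-0.64 ± 0.22) were lower, and itga2.2 (1.73 ± 0.41), fn1b, itgb4 (1.25 ± 0.41) and itga3b (1.11 ± 0.29) were higher.

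Basal keratinocyte markers moved with these genes. Their mean level in mCherry+ arrays was 7.21 to 8.61 untreated, 8.03 to 9.32 after 1 h, 9.09 to 10.03 after 3 h, 7.87 to 9.57 after 5 h and 8.78 to 9.76 after 11 h, and 7 of the 11 were called higher at 3 h and 3 at 11 h. Untreated replicate 4, the lowest of its group in fn1b, itga2.2, itgb3a, itgb4, lamb4 and lama5, also had the lowest keratinocyte level (7.21). The mean of the hemidesmosome genes other than the integrins (3 measured of 5) was 7.22 to 8.26 untreated and 9.0 to 9.73 after 3 h. Of these col17a1a, a collagen of hemidesmosomes, was up by 3.66 ± 0.74 and the linker pleca by 0.79 ± 0.20. The other measured gene, col17a1b, was not called at 3 h. Neuromast support and mantle cell markers were at 6.59 to 7.22 after 3 h against 7.20 to 7.76 untreated, with 3 of 11 called lower and none higher. After 11 h they were at 7.48 to 8.26, with 1 called higher and none lower. Of the 16 connective tissue markers, 5 were lower and 2 higher at 3 h. The part of keratinocyte RNA and of the other lists in the changes of the adhesion genes was not tested.

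**Figure D5:**
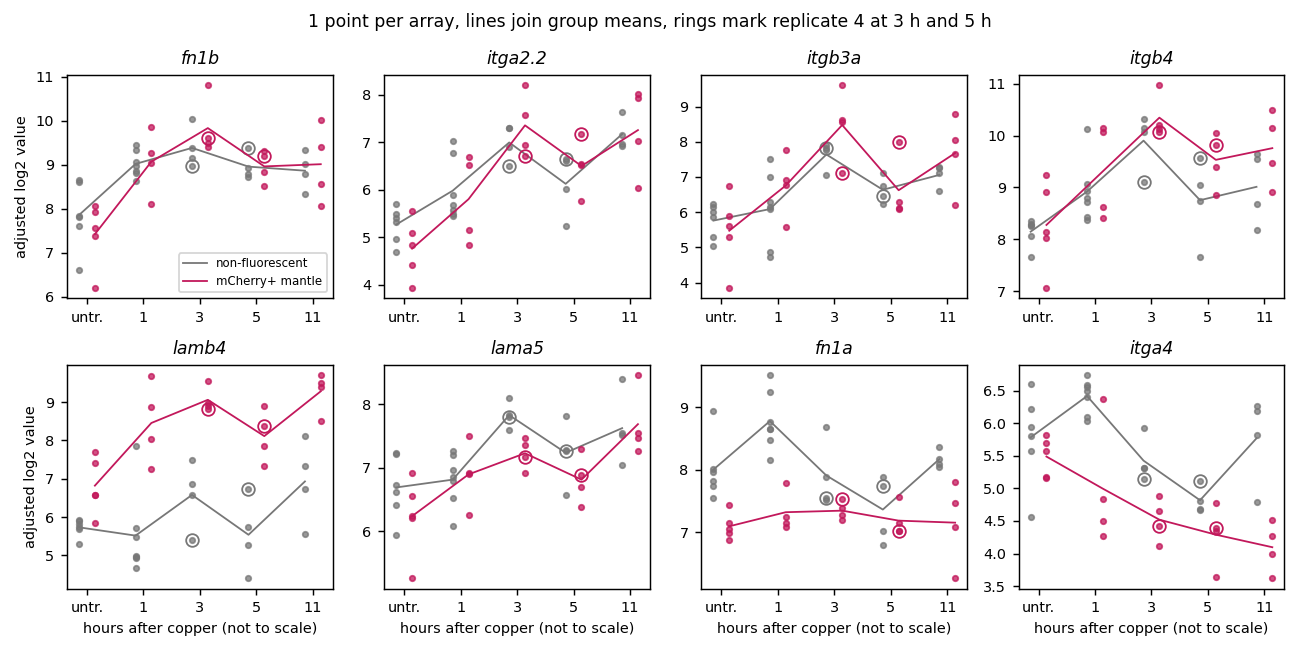
Log2 level (vertical axis) of 8 genes in each array of non-fluorescent (grey) and mCherry+ mantle cells (magenta), untreated and 1, 3, 5 and 11 h after copper (horizontal axis, not to scale), with lines through the group means and rings around replicate 4 at 3 h and 5 h. In mCherry+ cells fn1b is at 8.07 or above in all treated arrays and at 8.06 or below in the untreated ones, while fn1a stays between 6.26 and 7.81.

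In non-fluorescent cells 7 members were called after 1 h, all higher (5.26% of all genes called, 2.93% higher), 18 after 3 h, all higher (19% and 8.96%), 5 after 5 h (11.6%), of which 2 were higher (5.71%) and 3 lower (5.93%), and 1 after 11 h (3.34%). The counts in all 4 fits were 4, 1, 0 and 1, beside 2.78%, 2.18%, 0.688% and 1.88% of all genes. The member medians were 0.32, 0.39, -0.02 and 0.21, each beside an all-gene median within 0.02 of 0. Single arrays bore on several counts: at 1 h 3 members were called without non-fluorescent untreated replicate 3, 1 h replicate 1 or 1 h replicate 5, and 4 without untreated replicates 4 or 6. At 3 h 10 were called without 3 h replicate 3. At 5 h none were called without 5 h replicate 2 or 3, 1 without untreated replicate 5 or 6 or 5 h replicate 1, and 2 without untreated replicate 2, where limma gave 13 members an unadjusted p below 0.05 over all arrays. At 11 h 2 were called without untreated replicate 1 and 3 without 11 h replicate 3.

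At 1 h the secreted thrombospondin thbs1a changed most in non-fluorescent cells. Its levels were 7.87 to 9.79 (median 8.35) after copper and 6.53 to 7.48 (median 7.15) before, a difference of 1.62 ± 0.33 without overlap. Fibronectin fn1b ranged from 8.64 to 9.46 against 6.62 to 8.66 (1.16 ± 0.32), with the lowest treated array barely inside the untreated range. The fibronectin receptor chain itga5 was at 5.96 to 7.03 against 5.23 to 6.00 (0.95 ± 0.18, adjusted p = 0.00104), and lamc1 at 8.47 to 9.87 against 7.88 to 8.47 (0.93 ± 0.18), and in both the groups only just overlapped. These 4 genes held in all 4 fits. The differences of itga9 (1.04 ± 0.30), fn1a (0.78 ± 0.23) and itgb5 (0.59 ± 0.18) did not. The fn1b call was lost without untreated replicate 2 or 3 or without 1 h replicate 1 or 5.

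At 3 h the single call in all 4 fits was itgb1bp1, at 7.08, 7.38, 7.33 and 8.23 against 5.80 to 6.72 untreated (1.20 ± 0.22, adjusted p = 0.000194). The 18 members called at that time also included itgb3a (1.88 ± 0.51), itgb4 (1.76 ± 0.40), itga2.2 (1.72 ± 0.39), itga6b (1.54 ± 0.31) and fn1b (1.52 ± 0.37), none in all 4 fits. At 11 h itga2.2 was called, with 7.64, 7.15, 6.92 and 6.97 against 4.70 to 5.71 untreated (1.90 ± 0.39), and it held in all 4 fits. Its 4 arrays lay clear of the untreated group. At 5 h, again with none in all 4 fits, fn1b (1.1 ± 0.37) and itgb1bp1 (0.80 ± 0.22) were higher, and itga4 (-0.97 ± 0.32), itgb1b (-0.75 ± 0.24) and itgb5 (-0.61 ± 0.21) were lower.

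Markers of other cell types moved in the same non-fluorescent arrays. The connective tissue level was 9.14 to 9.99 after 1 h and 9.13 to 9.80 after 3 h, against 8.73 to 9.26 untreated, and 4 of the 16 markers were called higher at 1 h and 5 at 3 h, where 1 was lower. At 1 h 2 of 14 leukocyte markers (3.22 to 5.70 against 4.45 to 6.54) and 2 of 5 thrombocyte markers (3.56 to 5.27 against 4.26 to 5.99) were lower and none higher. Basal keratinocyte markers were at 9.48 to 9.84 after 3 h against 8.79 to 9.65 untreated, with 2 of 11 called higher and none lower. The part of these lists in the changes of the adhesion genes was not tested.

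Whether the populations responded differently was tested as the difference of the responses, mCherry+ minus non-fluorescent. It was called for 2 members at 1 h (1.56% of all genes), 6 at 3 h (12.9%) and 2 at 5 h (4.83%), none of them in all 4 fits (0.817%, 0.429% and 0% of all genes). An unadjusted p below 0.05 was found for 14, 11 and 7 members. At 11 h limma called 0 members (0.59% of all genes, 0.238% in all 4 fits), and 7 had an unadjusted p below 0.05. On the deposited scale the median response difference over all genes was -0.11, -0.12, -0.14 and -0.13 at 1, 3, 5 and 11 h, which the subtraction takes out. A set shift of a gene that is unequal in the populations would still enter this contrast and cannot be told apart from a different response. At 1 h the differences were those of itga5 (-1.1 ± 0.28) and itga9 (-1.89 ± 0.48). The fibronectin receptor chain itga5 was at 4.54, 4.35, 4.30 and 3.62 in mCherry+ cells 1 h after copper and 4.20 to 4.54 before, while it rose in non-fluorescent cells. The responses of fn1b, itga2.2, itgb3a, itgb4 and lamb4 were not called as different between the populations at any time, which does not show that they were alike. For fn1b the non-fluorescent differences were 1.16, 1.52, 1.1 and 1.0 over the 4 times, beside 1.65, 2.41, 1.54 and 1.59 in mCherry+ cells.

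Comparing the 4 times after copper with one another leaves out the untreated arrays. In mCherry+ cells 12 members differed among the times (20.1% of all genes), of which thbs3a alone held in all 4 fits (2.32% of all genes; adjusted p = 0.00333). Its levels were 6.91, 7.08, 6.40 and 7.04 after 1 h, 6.54, 5.87, 5.77 and 6.26 after 3 h, 6.38, 5.93, 5.69 and 5.82 after 5 h, and 5.88, 5.47, 5.20 and 6.12 after 11 h. All 11 h arrays lay below all 1 h arrays. Without mCherry+ 1 h replicate 1 the count was 6, and without 1 h replicate 2 or 3 h replicate 2 it was 7. In non-fluorescent cells 24 members differed among the times (30.5% of all genes), and 9 held in all 4 fits (6.72% of all genes): fn1a, itga1, itga5, itgb1b, itgb1bp1, itgb5, lama4, lamc1 and thbs1a. For itgb1b, a beta1 chain, the levels were 7.29 to 8.73 after 1 h, 8.69, 8.50, 9.13 and 8.19 after 3 h, 7.03, 6.86, 6.58 and 7.42 after 5 h, and 9.08, 7.70, 8.54 and 7.76 after 11 h (adjusted p = 4e-05). The 5 h arrays were low, with only 1 of them overlapping the 1 h range.

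The untreated differences between mCherry+ and non-fluorescent cells were mostly still present after copper, given here as values without a test because the treated sets were imported on their own. Of the 22 members higher in untreated mCherry+ cells, 21, 18, 20 and 20 had the higher mean there after 1, 3, 5 and 11 h, and in 11, 14, 16 and 16 of them the arrays of the populations lay fully apart. Of the 2793 genes called higher there when untreated, 92.8%, 77.9%, 86% and 91.4% had the higher mean and 44.4%, 39.3%, 49.7% and 48.3% lay fully apart. All 6 lower members kept the lower mean at each time, with 4, 4, 5 and 5 fully apart. Of the 3401 genes called lower, 91.5%, 77.5%, 87.6% and 88.8% had the lower mean and 36.8%, 39.8%, 51.3% and 41.6% lay fully apart.

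The members called in none of the 20 comparisons numbered 5: the thrombocyte chain itga2b, the laminin chains lama1 and lamb3, the nidogen nid2b and the thrombospondin thbs2a. Their levels stayed between 3.04 and 5.68 over all 52 arrays. The alpha6 paralog itga6a was called once, between double-positive and non-fluorescent cells (0.70 ± 0.21), with 4.91, 4.02, 4.83 and 4.45 against 3.29 to 4.17.

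Lists of genes that work beside the members were counted in the same comparisons. Of all genes, 14.4% were called higher and 17.6% lower in mCherry+ than in non-fluorescent cells, 14.9% and 10.2% in double-positive than in mCherry+ cells, and 16.2% and 19.8% in hair cells than in non-fluorescent cells. Of 27 focal adhesion and integrin adaptor genes, 13 were higher and 5 lower in mCherry+ than in non-fluorescent cells. The increases were led by bcar1, a docking protein of integrin signalling (2.10 ± 0.20), and the talin gene tln2a (1.85 ± 0.14), and the decreases by cd151 (-1.31 ± 0.14) and fermt3b (-1.27 ± 0.35). In double-positive cells 4 of the 27 genes were higher and 11 lower than in mCherry+ cells, with a median of -0.48. Relative to non-fluorescent cells 8 were higher (15.9% of all genes) and 7 lower (15.1%) in double-positive cells. The kindlin gene fermt1, an integrin activator of epithelia, was higher in double-positive than in non-fluorescent cells by 4.77 ± 0.23 and higher than in mCherry+ cells by 3.02 ± 0.23. After copper it rose in mCherry+ cells at 3 h (1.64 ± 0.44) and 11 h (1.85 ± 0.44), and in non-fluorescent cells at 3 h (1.86 ± 0.42). Of 26 other basement membrane genes, 12 were higher and 3 lower in double-positive than in mCherry+ cells, led by npnta, a nephronectin and so a ligand of alpha8 integrin (2.25 ± 0.23), and col18a1a (2.16 ± 0.28). In mCherry+ cells 7 of these 26 genes were higher and 9 lower than in non-fluorescent cells. The largest decreases were in the type IV collagens col4a1 and col4a2 (-2.19 ± 0.22 and -2.74 ± 0.19). The largest increases were in bgnb (2.06 ± 0.19) and frem1a (2.02 ± 0.32). Of 21 other matrix ligands of integrins, 8 were higher and 3 lower in mCherry+ cells, with fbln1, a fibulin, at 3.55 ± 0.23, and 9 were lower and none higher in double-positive than in mCherry+ cells. In hair cells 14, 18 and 13 genes of these 3 lists were lower than in non-fluorescent cells, and 0, 0 and 1 higher.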

How the data were processed

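The deposited values are RMA log2 intensities per probe set, made by the authors with Partek 6.6 per the submitters' processing notes. No source used here states the log base, which was taken as 2 because RMA gives log2 values and these run from -1.29 to 15.05. The untreated populations and the copper series were imported separately, and a few untreated samples that stood apart were left out by the authors, per the series' design text. Of 75212 probe sets 20897 had 1 gene symbol, 764 several and 53551 none listed. From each array the median over 19331 genes of its deviation from the gene means was subtracted, because array levels differed between sets. Fits used limma 3.58.1 (lmFit, eBayes) in R 4.3.3 (package data.table, version 1.17.8), 1 fit for the 17 untreated arrays and 1 for the 46 non-fluorescent and mCherry+ arrays, with no replicate block, and Benjamini-Hochberg adjustment over all genes. Figures were drawn with matplotlib 3.10.9. The fits without block terms were also run on simulated data with independent noise in each array. That simulation held no constraint at 3 h and 5 h, no alike arrays and no set shift, so it cannot speak to these. Of the 52 genes, 50 matched RefSeq by Entrez ID under the same symbol. Any member could be named. Values by array are given for a fixed set of 20 members and the 3 largest called changes in each direction, and for other lists up to 2 called genes in each direction. The members, lists and alternatives were chosen with earlier results of these data known. Signal over background was not used, and the number of arrays limits the precision.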

Additional observations from a re-analysis of the deposited data

Results flagged for a closer look

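In 26 of 418 sets of a named gene in 1 group (6.22%, where chance gives about 5%), 1 array stood apart from the rest of its group. In untreated non-fluorescent cells these were replicate 2 for fn1a (8.94), lamb1a (7.51) and itga8 (7.67) and replicate 1 for lamb4 (5.29). In untreated mCherry+ cells replicate 3 stood apart for thbs3a (5.78) and itga1 (4.22), and in double-positive cells replicate 4 for itgb2 (2.03) and itga3a (3.63) and replicate 1 for itga9 (4.95). After copper, non-fluorescent cells gave replicate 3 at 1 h for itgb4 (10.13) and lamb4 (7.85), replicate 2 at 1 h for itgb6 (5.34), replicate 4 at 3 h for thbs3a (3.58), replicate 1 at 5 h for itgb2 (4.68) and replicate 1 at 11 h for itga8 (8.41). In mCherry+ cells at 1 h it was replicate 4 for itgav (11.29) and itgb2 (2.02). At 3 h replicate 1 stood apart for fn1b (10.82) and itgb4 (10.98), replicate 2 for itga5 (3.11), replicate 3 for itgb2 (3.57) and replicate 4 for thbs1b (8.57). At 5 h it was replicate 3 for thbs1b (7.30) and replicate 4 for itgb3a (8.00), and at 11 h replicate 4 for itgav (11.39) and replicate 2 for thbs1b (9.92).

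The limma test of the difference between the responses of mCherry+ and non-fluorescent cells called the following members, with values given as log2 differences. A set shift that is unequal in these populations cannot be told apart from a different response. At 1 h these were itga5 (-1.1) and itga9 (-1.89). At 3 h they were itga11b (-1.62), itga5 (-1.51), itgb1b (-1.48), itgb1bp1 (-1.37), lama4 (-1.32) and lamb1a (-1.26). At 5 h they were itgb1bp1 (-1.71) and itga11b (-1.14). All 10 response differences were below 0, and none was called in all 4 fits. The genes itga5, itga11b and itgb1bp1 appear at more than 1 time, and the times share the untreated arrays. At 1, 3 and 5 h 3.85%, 11.5% and 3.85% of the 52 members were called, against 1.56%, 12.9% and 4.83% of all genes. Over all genes 0.952%, 6.37% and 2.45% were called lower and 0.61%, 6.55% and 2.38% higher.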

How the results depend on the processing

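Each count of called members was recomputed under 6 alternatives for all 20 comparisons, and with each array left out. A further alternative covered the 8 comparisons that involve 3 h or 5 h. With single arrays left out no member's call reversed its direction. Under the 6 alternatives direction was compared for the named genes only, and none reversed. It was not compared under the further alternative. Quantile normalization gave 0 members in mCherry+ cells at 1 h, 4 in non-fluorescent cells at 1 h, 0 for the response difference at 1 h and 7 among the times of mCherry+ cells. The deposited values gave 19, 3 and 5 in non-fluorescent cells at 1, 5 and 11 h and 4 for the response difference at 1 h. On the deposited values the share of higher calls among all genes moved from 55.8% to 91.8%, 47.2% to 72.3%, 49% to 78.8% and 52.6% to 90.7% in non-fluorescent cells at 1, 3, 5 and 11 h, and for the response difference from 39.1% to 14.3%, 50.7% to 33.3%, 49.4% to 22.7% and 52.6% to 19.9%. Quantile normalization moved it from 66.8% to 55.4% and from 71.8% to 60.3% in mCherry+ cells at 1 and 11 h and from 59.4% to 49.4% between the mantle populations. With the block terms, the counts were 4 and 0 in mCherry+ cells at 3 and 5 h, 4, 1 and 0 in non-fluorescent cells at 1, 3 and 5 h, 0 and 0 for the response difference at 3 and 5 h, and 1 and 9 among the times. With replicate 4 alone at 3 h and 5 h, an alternative added after seeing the data, they were 0 and 0, 1 and 0, 2 and 0, and 1 and 3 in the same order without the 1 h count. Without dim genes the response difference at 5 h gave 1, and the mean of the probe sets changed no count by over 1.5 times.

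Replicate numbers are shared between groups, but same-numbered samples correlated between -0.60 and 0.34 and in no comparison were all pairs above 0.1. Between untreated mCherry+ and non-fluorescent cells 4 of the 5 pairs were (0.34, 0.20, 0.14 and 0.29, beside -0.08), and the labels name no shared source for a number. A replicate block gave 11 and 2 members in non-fluorescent cells at 1 and 5 h and 1 for the response difference at 5 h, and left the other 17 of 20 counts within 1.5 times. Leaving out each array gave 28 to 30 members for mCherry+ against non-fluorescent cells, 30 to 35 for double-positive against non-fluorescent cells, 27 to 33 for double-positive against mCherry+ cells, and 29 to 37, 33 to 37 and 28 to 33 for hair cells against non-fluorescent, mCherry+ and double-positive cells. After copper it gave 0 to 1, 9 to 14, 6 to 10 and 4 to 10 in mCherry+ cells, 3 to 10, 10 to 18, 0 to 5 and 1 to 3 in non-fluorescent cells, 0 to 4, 6 to 7, 1 to 2 and 0 for the response differences, and 6 to 12 and 20 to 27 among the times. The lowest counts of mCherry+ cells were without 3 h replicate 2 (9) and without 5 h replicate 1, 2 or 4 (6). Precision is limited by the 2 hair cell arrays and by the constraint at 3 h and 5 h, and dim members have the least range: 8 of the 52 have all group means below 4.86.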
